A study of Mus musculus with 11 samples.

Results

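The genes described here are 39 germline genes, chosen by name from 49943 genes of the RefSeq gene table, and not by any measured value. Earlier results of these data were known when they were chosen. They were grouped under the working description of germline genes that body cells silence by methylating the promoter. Their DNA methylation was read in sorted bone marrow cells of C57BL/6 mice, with and without the DNA methyltransferase Dnmt3a. For each gene, C positions with at least 10 reads within 1000 bp of the transcription start (the start region) were read apart from those inside the gene and farther away (the gene body). The question was whether these promoters keep their methylation without Dnmt3a.

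All mice carried the floxed Dnmt3a allele on both chromosomes (Dnmt3a f/f), had been given poly(I:C) by 5 injections, and were studied at 12 months of age. Knockout animals also carried the Mx1-Cre transgene (Dnmt3a f/f Mx1-Cre+), and controls did not (Dnmt3a f/f Mx1-Cre-), so that the controls had the floxed allele and the poly(I:C) too. Poly(I:C) induces interferon, which switches on the Mx1 promoter; this promoter is active in blood cells and also in liver and other tissues, so deletion is not limited to the sorted cells and can be incomplete. The cells were LSK (Lin- Sca1+ cKit+, the fraction that holds the blood stem cells), with 3 control and 3 knockout libraries, and GMP (Lin- Sca1- cKit+ CD34+ FcgR+, granulocyte-macrophage progenitors), with 2 and 2. Another GMP library, 352, has labels that disagree on its genotype and entered no comparison. The method was enhanced reduced representation bisulfite sequencing, which reads CpG sites near MspI cut sites (CCGG). Library numbers are those of the titles, and nothing in the labels says that each library came from another animal, so the spread behind each p-value may be technical.

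Germline genes serve germ cells: they build the meiotic chromosome axis, make and repair meiotic DNA breaks, or run the piRNA pathway, in which small RNAs guide PIWI proteins against transposons. Many have CpG-rich promoters that are methylated in the early embryo around implantation, largely by the de novo methyltransferases Dnmt3a and Dnmt3b, with sequence-specific repressors that recruit silencing complexes at the motifs CACGTG (an E-box, read by Mga-Max) and TCCCGC (read by E2f6). The maintenance methyltransferase Dnmt1 then copies methylation at each cell division. Dnmt3a is one of the genes most often mutated in clonal blood disorders.

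The LSK libraries held 157.3 to 181.1 M reads (M, 1e6) summed over C positions, and the GMP libraries 95.4 to 109.7 M. Of 356 C positions of Dnmt3a (chromosome 12, 3801559 to 3914443, GRCm38) listed in all 5 control libraries, 5 positions between 3903653 and 3904031 were unlisted in all 3 knockout LSK libraries. GMP knockout 178 listed 4 of these 5 and GMP knockout 179 listed 5, with 34.1% and 59.7% of the control GMP coverage relative to the rest of the gene, so reads of this segment remained in both libraries labelled GMP knockout. Unassigned library 352 listed 0 of the 5. LSK control 1326 and LSK knockout 1327 listed 1470 and 1422 positions of the Y chromosome, and the other LSK libraries 211 to 229, so the LSK libraries fall into 2 kinds, each with both genotypes. The 4 assigned GMP libraries listed 1226 to 1326, so all of them were of the kind with many Y positions. LSK knockout 1333 listed 118988 positions that no other library had, against 6313 to 35250 elsewhere. As a check of the cell labels, the gene bodies of Mpo and Ctsg, granule genes of GMP, were called lower in control GMP than in control LSK, 2 of 3 measured GMP markers. The background was 3.87% of all bodies. Of 5 GMP marker starts, 0 were measured. Of LSK markers, 0 of 3 starts and 0 of 4 bodies were called. The T cell gene Lck was called higher in control GMP, 1 of 2 measured T cell bodies.

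The promoter sequences below show what the methylated, partly methylated and unmethylated members look like. They run from 250 bases before to 50 bases after the outermost start in the RefSeq promoter table (GRCm38.p6), 5′ to 3′ on the gene's strand. Capitals mark CACGTG and TCCCGC or its reverse complement GCGGGA. Ddx4 (chr13:112652261-112652560, minus strand) and Slc25a31 (chr3:40708621-40708920, plus strand) have start regions at more than 90% methylation. Dazl (chr17:50293571-50293870, minus strand) and Pou5f1 (chr17:35505782-35506081, plus strand) are partly methylated as a mean over the start region. In Dazl, 13 positions in the first 200 bp after the start were at 95.4% in control LSK. Its low levels lie downstream of the printed bases. In Pou5f1, the positions listed in all assigned libraries lay after the start, within 800 bp. None lay in the 250 bases printed before it, so the level of those bases is not known. Ddx25 (chr9:35558421-35558720, minus strand) holds the same letters as Ddx4 and is below 1%.
Ddx4: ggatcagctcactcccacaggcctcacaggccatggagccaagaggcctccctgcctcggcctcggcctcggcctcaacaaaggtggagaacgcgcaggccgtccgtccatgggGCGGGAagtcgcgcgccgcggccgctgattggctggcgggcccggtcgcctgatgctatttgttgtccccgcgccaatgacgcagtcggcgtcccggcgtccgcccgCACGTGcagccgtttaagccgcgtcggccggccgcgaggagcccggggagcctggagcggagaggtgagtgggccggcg
Slc25a31: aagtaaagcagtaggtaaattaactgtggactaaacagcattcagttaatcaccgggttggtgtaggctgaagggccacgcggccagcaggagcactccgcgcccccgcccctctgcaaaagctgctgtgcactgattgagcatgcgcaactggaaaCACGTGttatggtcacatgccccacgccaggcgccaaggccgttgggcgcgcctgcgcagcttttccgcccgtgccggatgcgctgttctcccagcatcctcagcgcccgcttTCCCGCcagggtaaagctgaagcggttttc
Dazl: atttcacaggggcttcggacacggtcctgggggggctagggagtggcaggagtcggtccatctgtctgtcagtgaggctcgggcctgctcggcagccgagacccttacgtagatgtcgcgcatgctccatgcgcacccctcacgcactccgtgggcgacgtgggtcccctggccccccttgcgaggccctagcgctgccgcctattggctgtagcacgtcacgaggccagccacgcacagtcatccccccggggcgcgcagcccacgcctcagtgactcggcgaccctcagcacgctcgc
Pou5f1: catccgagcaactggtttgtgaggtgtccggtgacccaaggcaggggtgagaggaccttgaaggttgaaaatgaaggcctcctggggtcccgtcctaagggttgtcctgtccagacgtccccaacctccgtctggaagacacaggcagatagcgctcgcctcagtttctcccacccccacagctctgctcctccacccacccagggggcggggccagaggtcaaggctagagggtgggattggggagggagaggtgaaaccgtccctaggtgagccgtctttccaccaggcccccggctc
Ddx25: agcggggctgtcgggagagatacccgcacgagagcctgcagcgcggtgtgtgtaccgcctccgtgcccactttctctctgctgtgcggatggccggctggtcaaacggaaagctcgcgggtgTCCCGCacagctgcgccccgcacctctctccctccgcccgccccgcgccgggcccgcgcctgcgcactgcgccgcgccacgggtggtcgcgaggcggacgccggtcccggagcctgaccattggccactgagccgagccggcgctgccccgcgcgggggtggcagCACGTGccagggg

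Promoter sequences were found for 33 of the 39 members. CACGTG, which reads the same on both strands, was present in 15 of the 33 (45.5%), against 7.24% of the 27025 genes of the promoter table. TCCCGC on either strand was present in 12 (36.4%), against 20.1%, and both motifs in 8 (24.2%), against 2.05%. The median number of CG pairs in the 300 bases was 18 in members and 7 in all genes. These are matches of letters, and copies of both motifs can share an end base. Members with a measured start and a sequence were split by the level of the whole start region in control LSK. CACGTG was present in 8 of 14 at 80% or more, 2 of 6 at 20 to 80% and 2 of 4 below 20%. TCCCGC was present in 7 of 14, 1 of 6 and 4 of 4 of these. The 4 below 20% (Tdrd5, Stag3, Ddx25 and Dmc1) had a median of 35.5 CG pairs, against 18 and 19.5 in the partly and highly methylated members.

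A start region was measured, with at least 5 C positions listed in all libraries compared, for 27 of the 39 members in each cell type. In control LSK, 14 of the 27 (51.9%) were methylated at 80% or more, against 11.5% of all gene starts. Another 6 (22.2%) lay between 20 and 80%, and 7 (25.9%) lay below 20%, the range of 82.1% of all gene starts. The same members fell in the same 3 ranges in control GMP. Taken over the whole start region, the working description went against the data in 7 members: Tdrd5, Stag3, Tex15, Ddx25, Gdf9, Dmc1 and Dmrt1. The region level can hide the layout. Boll, at 20 to 80%, was at 0.23% in control LSK over 5 positions in the first 200 bp after its start. It was at 1.59% over 48 positions at 200 to 400 bp, so it too lacked methylation near its start. The low Stag3 positions lay before its start, and 3 positions at 400 to 600 bp after it were at 86.1%. For Tex15, Gdf9 and Dmrt1 the promoter table gives no start, and the gene end with more C positions was read in its place. The start regions of Stag3, Ddx25 and Gdf9 also hold the start of a neighbour (Gpc2, Pus3 and Uqcrq), so their low level cannot be assigned to 1 gene.

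**Figure D1:**
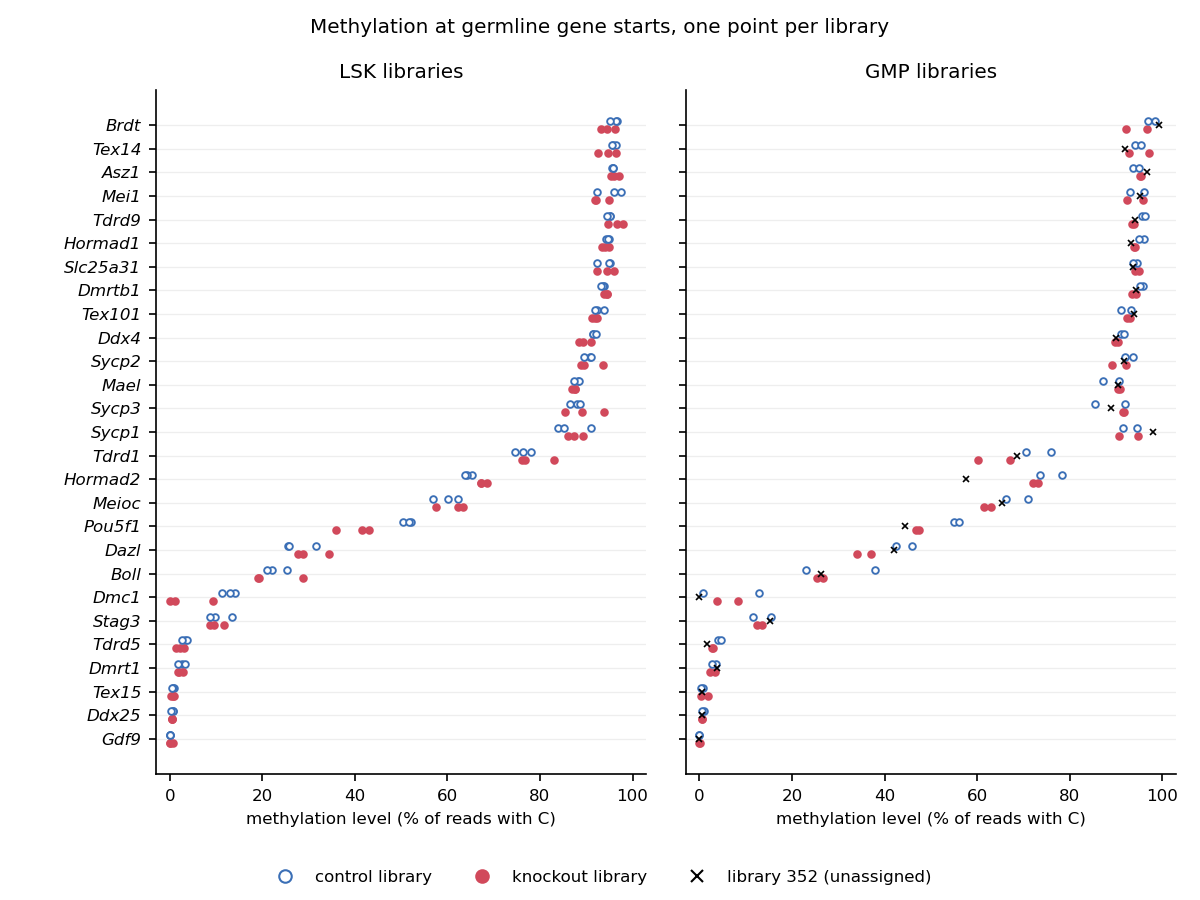
Methylation level of the 27 measured germline gene starts, as percent of reads with C (x axis), by gene (y axis, ordered by control LSK), in LSK (left) and GMP (right). Each point is 1 library: open circles are controls, filled circles knockouts, crosses the unassigned library 352. The 14 genes at the top lie at 83.8% or more in each assigned library of both genotypes, and the groups part visibly at Pou5f1.

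In knockout LSK, the highly methylated starts were close to their control level. Levels are methylated reads over all reads of the region, and differences are knockout minus control, in percentage points. A gene was called when the adjusted p (quasi-binomial model of the reads, limma-moderated, Benjamini-Hochberg over all genes) was under 0.05 and the difference at least 10 points. None of the 27 members was called, against 0.780% of 18208 gene starts, all 142 of them lower in knockout; 3 members and 10.4% of all starts had an unadjusted p under 0.05. Of the 27, 15 were lower and 12 higher in knockout, with a median of -0.03 points, against -0.01 points and 51.2% lower over all starts. The libraries of the 2 groups did not overlap for 4 members, 3 of them lower (Ddx4, Dmc1 and Pou5f1), against 12.0% of all starts lower without overlap and 4.49% higher.

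The 14 highly methylated starts ranged from 83.8% to 97.5% in single control LSK libraries and from 85.5% to 97.9% in knockouts. Their differences ran from -2.29 (Mei1) to 1.75 points (Sycp3). Of their 330 C positions listed in all 10 assigned libraries, 312 were at 80% or more in control LSK and 306 in knockout LSK. Sorted by the level in control GMP, so that the LSK libraries did not set the range, the 14 had a median difference of -0.20 points in LSK, and 0 of 14 differed by more than 5 points. All 1963 gene starts of that range had a median of -0.67, and 11.5% of them differed by more than 5 points. With equal weight for each C position the medians were -0.40 for the 14 and -0.71 for all, and 10 of the 14 were lower, against 7 with reads summed. In GMP, sorted by control LSK, the 14 had a median of -0.36 against -0.76 over all starts of that range, and with equal weight -0.96 against -0.79, so which of the 2 medians was lower changed with the weighting. These medians describe the lists and were not tested.

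Among piRNA and germ granule genes, 8 of 14 had a measured start, 5 lower and 3 higher in knockout LSK. Ddx4 (chromosome 13, the Vasa RNA helicase of germ granules) read 91.4, 91.5 and 92.1% in control LSK libraries 1326, 1330 and 1331 and 88.4, 91.1 and 89.2% in knockouts 1327, 1333 and 1334, over 60 C positions. The groups did not overlap, but the difference of -2.09 points was not called (adjusted p = 0.461). Asz1, a mitochondrial-surface piRNA factor, was among the 3 highest starts, at 95.7, 95.8 and 95.9% in control and 96.0, 97.0 and 95.3% in knockout LSK. Tex14, needed for the bridges between germ cells, was another, at 95.7, 96.5 and 95.5% in control and 94.8, 92.6 and 96.4% in knockout; its start region also holds the start of Rad51c. Mael was at 88.0% ± 0.682 (SD, n = 3) and 87.4% ± 0.359, and Tdrd9 at 94.9% ± 0.371 and 96.4% ± 1.64. Tdrd5, a tudor-domain piRNA factor, was nearly unmethylated, at 3.19% ± 0.535 and 2.15% ± 0.845. Ddx25, an RNA helicase of spermatids, was among the 3 lowest, at 0.638, 0.626 and 0.319% in control and 0.550, 0.499 and 0.440% in knockout LSK.

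Among meiotic axis and synaptonemal complex genes, 6 of 8 had a measured start, 2 lower and 4 higher. Sycp3, a lateral element protein of the synaptonemal complex, read 88.0, 88.6 and 86.5% in control and 85.5, 93.8 and 89.0% in knockout LSK, and the highest value was that of library 1333. Sycp1, the transverse filament, was at 86.6% ± 3.78 and 87.6% ± 1.64 (n = 3), and Sycp2 at 90.5% ± 0.807 and 90.6% ± 2.60. Hormad1, an axis protein of unsynapsed chromosomes, was at 94.6% ± 0.315 and 94.1% ± 0.678. Hormad2, its relative, was partly methylated, at 65.3, 64.1 and 63.8% in control and 67.3, 67.3 and 68.6% in knockout LSK. Its groups did not overlap, but the difference of 3.30 points was not called (adjusted p = 0.532) and was -1.10 points with equal weight for each C position. Stag3, the meiotic cohesin subunit, was at 10.6% ± 2.50 and 9.94% ± 1.57 over the whole region, with a boundary inside it: 18 C positions at 400 to 600 bp before the start were at 0.30% in control LSK, and 3 positions at 400 to 600 bp after it at 86.1%. Between these, 2 positions at 200 to 400 bp after the start read 100, 100 and 93.1% in control LSK and 74.4, 52.2 and 64.7% in knockout. These groups did not overlap, but the 2 positions were singled out after their values were seen, had 17.4 reads on average and were not tested.

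Among genes of meiotic recombination and entry, 4 of 5 had a measured start. Dmc1, the meiotic strand-exchange recombinase, read 14.1, 11.2 and 13.1% in control LSK and 0, 1.18 and 9.24% in knockouts 1327, 1333 and 1334. The groups did not overlap, but the value rests on 5 C positions with 28.2 reads on average, and the difference of -9.31 points was not called (adjusted p = 0.412). Without library 1327 the difference was 6.24 points, the opposite direction, but over 10 C positions, since 5 more are listed in the 5 libraries left. Over the original 5 positions, a comparison added after seeing the data, it was -7.57 points without 1327. Mei1, needed for meiotic breaks, was at 95.2% ± 2.64 (n = 3) in control and 92.9% ± 1.64 in knockout. Its 5 positions lay 600 to 800 bp after the start read. That start, 82082476, lies inside the gene, which begins at 82070074. Meioc, needed for the meiotic programme, was partly methylated, at 59.8% ± 2.71 and 61.1% ± 3.17. The gene end read for Tex15, which acts in meiotic repair and in piRNA-directed methylation, was among the 3 lowest, at 0.860, 0.652 and 0.560% in control and 0.757, 0.320 and 0.984% in knockout LSK.

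Among germline RNA-binding and transcription regulators, 5 of 7 had a measured start. Brdt, the testis bromodomain protein, had the highest mean level of the members in control LSK, at 96.6, 96.4 and 95.03%, and read 96.1, 93.2 and 94.6% in knockout, over 6 C positions. These positions lay 400 to 800 bp after the start, and none nearer to it was measured. Dmrtb1 was at 93.6% ± 0.330 (n = 3) and 94.3% ± 0.442, and the gene end read for Dmrt1 at 2.60% ± 0.806 and 2.14% ± 0.615. Dazl, an RNA-binding regulator of germ cell fate, read 25.5, 31.5 and 25.7% in control and 34.5, 28.7 and 27.8% in knockout LSK, and the groups overlapped. Boll, its relative, was at 22.8% ± 2.28 and 22.4% ± 5.55. Of the other germ cell genes, Tex101 was at 92.7% ± 1.04 and 91.9% ± 0.534, and Slc25a31, the testis ADP/ATP carrier, at 94.2% ± 1.64 and 94.3% ± 1.86. The gene end read for Gdf9, an oocyte growth factor, was the lowest, at 0, 0 and 0% in control and 0.608, 0.134 and 0% in knockouts 1327, 1333 and 1334. The groups overlapped at 0 (adjusted p = 0.534).

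Pou5f1 (Oct4, the pluripotency transcription factor; chromosome 17, 35506032 to 35510777) had the largest difference of the members' starts in LSK. Its start read 52.2, 50.4 and 51.6% in control LSK libraries 1326, 1330 and 1331 and 41.5, 36.0 and 43.0% in knockouts 1327, 1333 and 1334. The groups stood well apart, also between 1326 and 1327, the pair with many Y positions. The difference of -11.2 points was not called (adjusted p = 0.0764 over 11 C positions); within 2000 bp of the start it was -12.7 points and was called (adjusted p = 0.0136). The 5 positions in the first 200 bp after the start were at 47.3% ± 1.21 (n = 3) in control and 34.7% ± 3.59 in knockout, and the 5 positions at 400 to 600 bp at 52.2% ± 1.06 and 43.4% ± 4.81. The start of a predicted gene, Gm32362, lies in the same region.

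The Pou5f1 gene body was the 1 member region called in a knockout comparison. It read 21.5, 23.3 and 29.2% in control LSK libraries 1326, 1330 and 1331 and 15.7, 11.3 and 14.2% in knockouts 1327, 1333 and 1334, with no overlap. Its level fell by 11.0 points (adjusted p = 0.0366, 10 C positions). This call was lost in 10 of 15 alternatives, with adjusted p of 0.0251 to 0.327 and differences of -12.6 to -6.44 points; without library 1326, 1330, 1331, 1333 or 1334 the adjusted p was 0.0723, 0.107, 0.121, 0.0604 or 0.151.

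**Figure D2:**
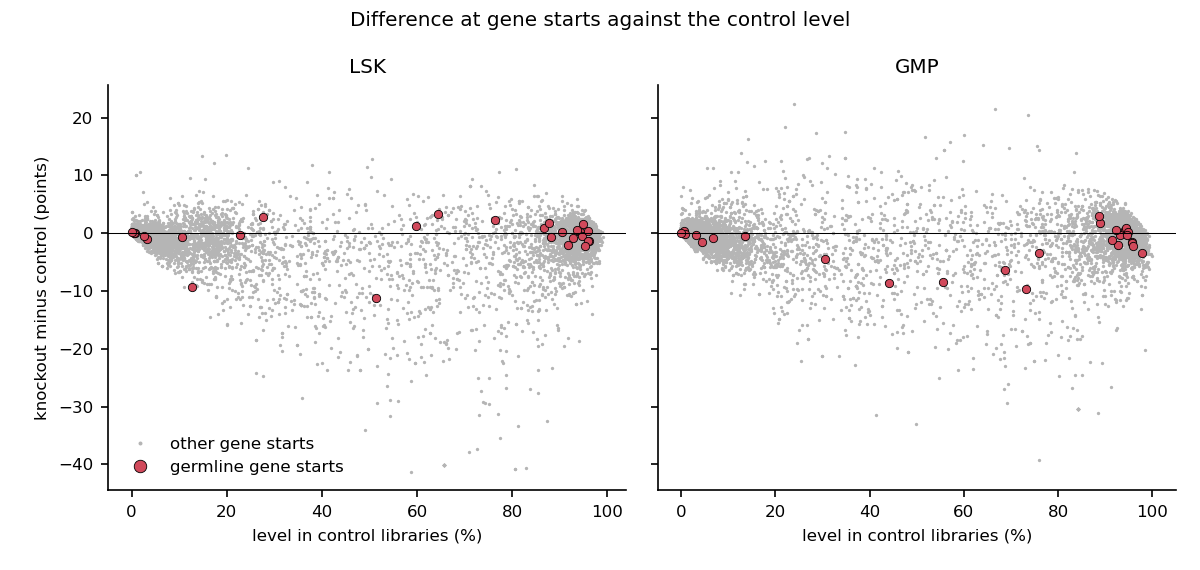
Knockout minus control difference at gene starts, in percentage points (y axis), against the mean level of the control libraries in percent (x axis), in LSK (left) and GMP (right). Small grey points are gene starts other than the members, large red points the 27 germline gene starts. In LSK the germline point farthest below 0 is Pou5f1 at -11.2 points; in GMP each of the 6 germline points between 20 and 80% lies below 0.

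Gene bodies were measured for 24 members in LSK. The members' bodies were lower in knockout in 20 of 24, against 74.0% of all 15283 bodies, with a median difference of -1.003 points against -1.13. Of the 24, 1 was called, against a background of 2.04% of bodies. Groups did not overlap for 5 members, all lower (Pou5f1, Dppa3, Stag3, Tex14 and Tex15), against 21.7% of all bodies lower without overlap and 1.74% higher. Dppa3 (Stella, which protects the maternal genome of the zygote from demethylation) read 64.5, 49.6 and 48.6% in control and 43.3, 34.2 and 48.5% in knockouts 1327, 1333 and 1334. Its difference of -12.2 points was the largest in size and was not called (adjusted p = 0.201), and the highest knockout library lies just below the lowest control. The Stag3 body read 83.2, 82.4 and 79.4% in control and 77.2, 71.3 and 71.1% in knockout. The difference of -8.47 points (adjusted p = 0.0384) was smaller than the 10 points a call required; without library 1327 it was -10.5 points and was called. The Tex14 body was at 76.4% ± 1.92 (n = 3) in control and 68.8% ± 3.16 in knockout (adjusted p = 0.0809). The bodies of the PIWI genes, measured although their starts were not, were at 91.3% ± 0.528 in control and 88.2% ± 2.53 in knockout (Piwil1), 95.04% ± 0.747 and 93.5% ± 1.99 (Piwil2), and 94.1% ± 0.747 and 93.2% ± 0.949 (Piwil4).

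**Figure D3:**
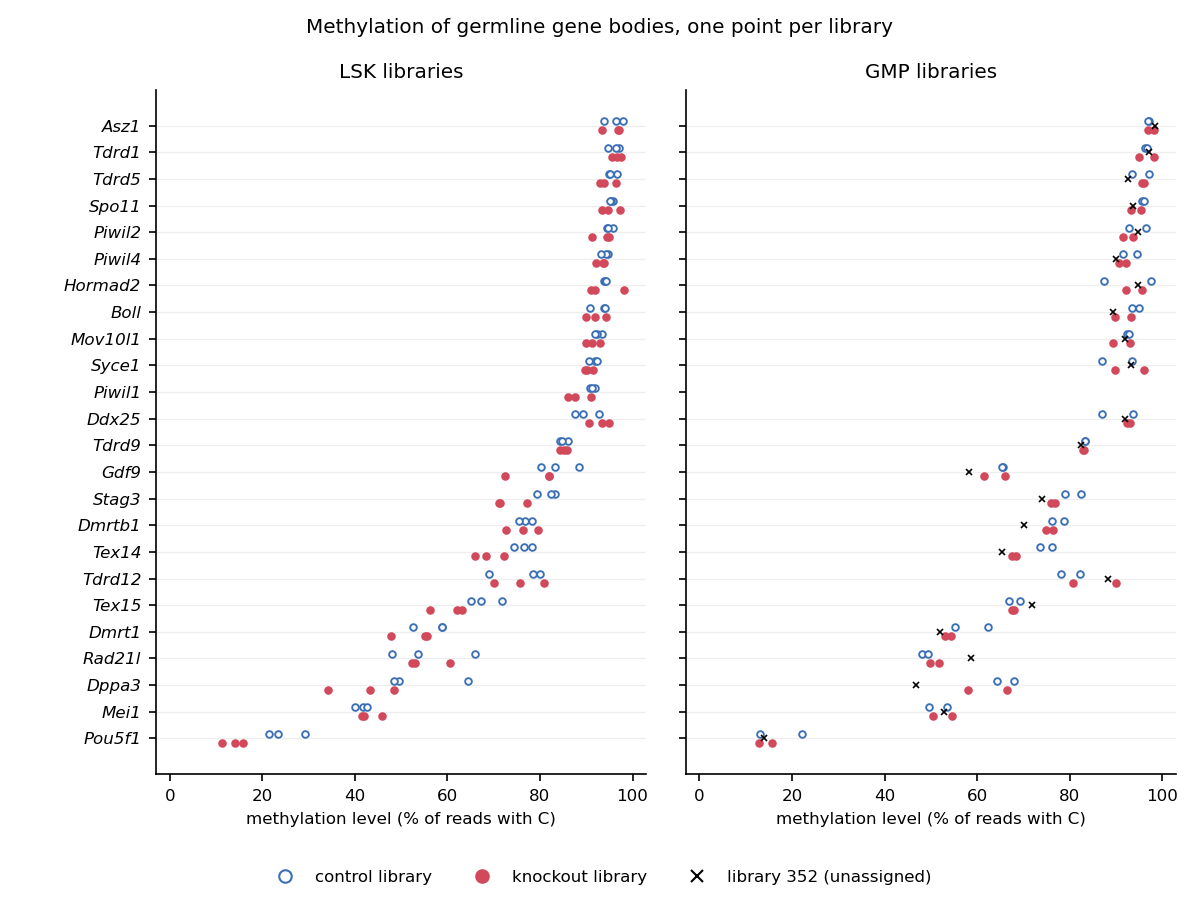
Methylation level of germline gene bodies, as percent of reads with C (x axis), by gene (y axis, ordered by control LSK), in LSK (left) and GMP (right), with 1 point per library: open circles controls, filled circles knockouts, crosses library 352. Most bodies lie above 70% in both genotypes; Pou5f1 is the lowest, with LSK knockouts at 11.3 to 15.7% below LSK controls at 21.5 to 29.2%.

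In knockout GMP, in which reads of the Dnmt3a segment remained as given above, no start of the 27 members was called, and the background was 0% of 18211 starts. Of the members 6 had an unadjusted p under 0.05, against 9.12% of all starts. Of the 27, 19 were lower and 8 higher, with a median of -0.75 points, against -0.05 points and 58.9% lower over all starts. The groups did not overlap for 13 members, 12 of them lower; over all starts 24.1% were lower and 12.4% higher without overlap. The highly methylated starts again lay near control: the 14 ranged from 85.5% to 98.5% in single control libraries and from 89.3% to 97.1% in knockouts. Ddx4 read 91.1 and 91.8% in control GMP libraries 346 and 349 and 89.8 and 90.6% in knockouts 178 and 179. Sycp3 read 85.5 and 91.9% in control and 91.6 and 91.7% in knockout. Brdt read 97.1 and 98.5% in control and 92.2 and 96.6% in knockout, a difference of -3.37 points (adjusted p = 0.588). Dmc1 read 0.746 and 12.9% in control and 8.39 and 3.72% in knockout, and the groups overlapped. These Dmc1 values are not over the same positions as those given for LSK. Over the 5 positions of the LSK values, control GMP read 0 and 2.67% and knockout GMP 2.67 and 6.09%.

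The 6 partly methylated starts had lower means in knockout GMP in 6 of 6, with differences of -9.59 to -3.35 points. In 5 of the 6 the groups did not overlap. Over all GMP starts, at any level, 24.1% were lower and 12.4% higher without overlap. The share among the partly methylated starts of all genes was not computed, so the 5 of 6 has no matched background. Tdrd1, a tudor-domain scaffold of the piRNA pathway, read 75.9 and 70.5% in control and 67.1 and 60.1% in knockout, with the largest difference, -9.59 points (adjusted p = 0.490). Dazl read 45.9 and 42.4% in control and 34.0 and 37.0% in knockout, a difference of -8.62 points (adjusted p = 0.215). Pou5f1 read 55.0 and 56.2% in control and 47.4 and 46.8% in knockout, a difference of -8.49 points (adjusted p = 0.455), the same sign as in LSK. Meioc read 66.3 and 71.0% in control and 63.0 and 61.5% in knockout, and Hormad2 73.6 and 78.4% and 72.1 and 73.1%. Boll overlapped, at 37.9 and 23.1% in control and 26.8 and 25.4% in knockout. Sorted by control LSK, the 6 had a median of -7.45 points, against -2.93 over all 1103 starts of that range, of which 69.3% were lower. With each C position weighted equally the medians were -4.68 and -2.63. In LSK, sorted by control GMP, the same 6 had a median of 1.80 points with 2 of 6 lower, against -4.05 and 76.9% lower over 1067 starts, and with equal weight -0.31 against -3.73.

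The difference between the knockout changes in GMP and LSK was tested directly and called for 0 of 27 member starts, against 0% of 17881 starts. An unadjusted p under 0.05 was found for 5 members (Dazl, Tdrd1, Meioc, Hormad2 and Dmrtb1) and for 4.42% of all starts, and each adjusted p was 1. At these 5 the GMP change was the lower one, with differences of -9.86, -11.4, -7.64, -6.66 and -2.68 points. With equal weight for each C position none of the 5 changed sign. The weighting did move their parts: the knockout difference was then -0.87 points for Dazl in GMP and -1.10 points for Hormad2 in LSK. In bodies the difference between the knockout changes was called for 0 of 23 members, against 0.00678% of 14758 bodies. An unadjusted p under 0.05 was found for 0 members and for 4.94% of all bodies.

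Single C positions were also averaged with equal weight. Of the members' start positions, 136 had a level of 20 to 80% in control GMP, 40 of them in Meioc and 37 in Boll. Over the 136, control LSK was at 57.2% ± 0.969 (n = 3) and knockout LSK at 55.7% ± 1.94. The difference was -1.53 points, against -6.60 points over the 16631 such positions of all gene starts. In GMP, 139 positions went from 65.6% ± 1.67 (n = 2) to 59.7% ± 2.02, a difference of -5.92, against -4.51. Of these 139, 47 lay in Meioc and 35 in Boll, so both pooled values rest mostly on 2 genes. Positions at 80% or more differed by -0.68 points in LSK (395 positions) and -0.74 in GMP (384), against -2.03 and -1.33 over all gene starts. Members share no positions with each other, but positions of 1 start share reads, so these values carry no test.

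The partly methylated starts differed in how the methylation was laid out. Dazl had a boundary: in control LSK, 13 positions in the first 200 bp after the start were at 95.4% ± 2.67 (n = 3), 11 positions at 200 to 400 bp at 90.005% ± 0.432, 13 at 400 to 600 bp at 35.0% ± 1.53, and 43 at 600 to 800 bp at 0.69% ± 0.312. Knockout LSK had 97.4, 87.5, 33.0 and 1.18% in these bins, so the boundary lay in the same bin. The intermediate level of the Dazl start region is thus a mean over a highly methylated stretch at the start and an unmethylated one downstream. Boll was the reverse: 48 positions at 200 to 400 bp after its start were at 1.59% ± 0.258, and 15 at 600 to 800 bp at 59.3% ± 1.17 in control LSK and 60.8% ± 4.28 in knockout. In Meioc, Hormad2, Tdrd1 and Pou5f1 the listed positions nearest the start showed no such boundary and varied in level from position to position. Hormad2 was at 41.5% ± 7.77 in the 200 bp before its start, where knockout LSK varied from 13.7% (1333) to 51.7% (1327), and at 72.7% ± 3.61 in the 200 bp after it. Tdrd5, at 3.19% over its whole start region, was at 12.6% ± 2.33 in control LSK and 5.07% ± 1.44 in knockout at 7 positions 200 to 400 bp after the start. In GMP these 7 positions were at 12.9% ± 4.89 (n = 2) in control and 10.9% ± 0.526 in knockout, and the groups overlapped. This bin is 1 among those of all members, was not named in advance and was not tested.

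**Figure D4:**
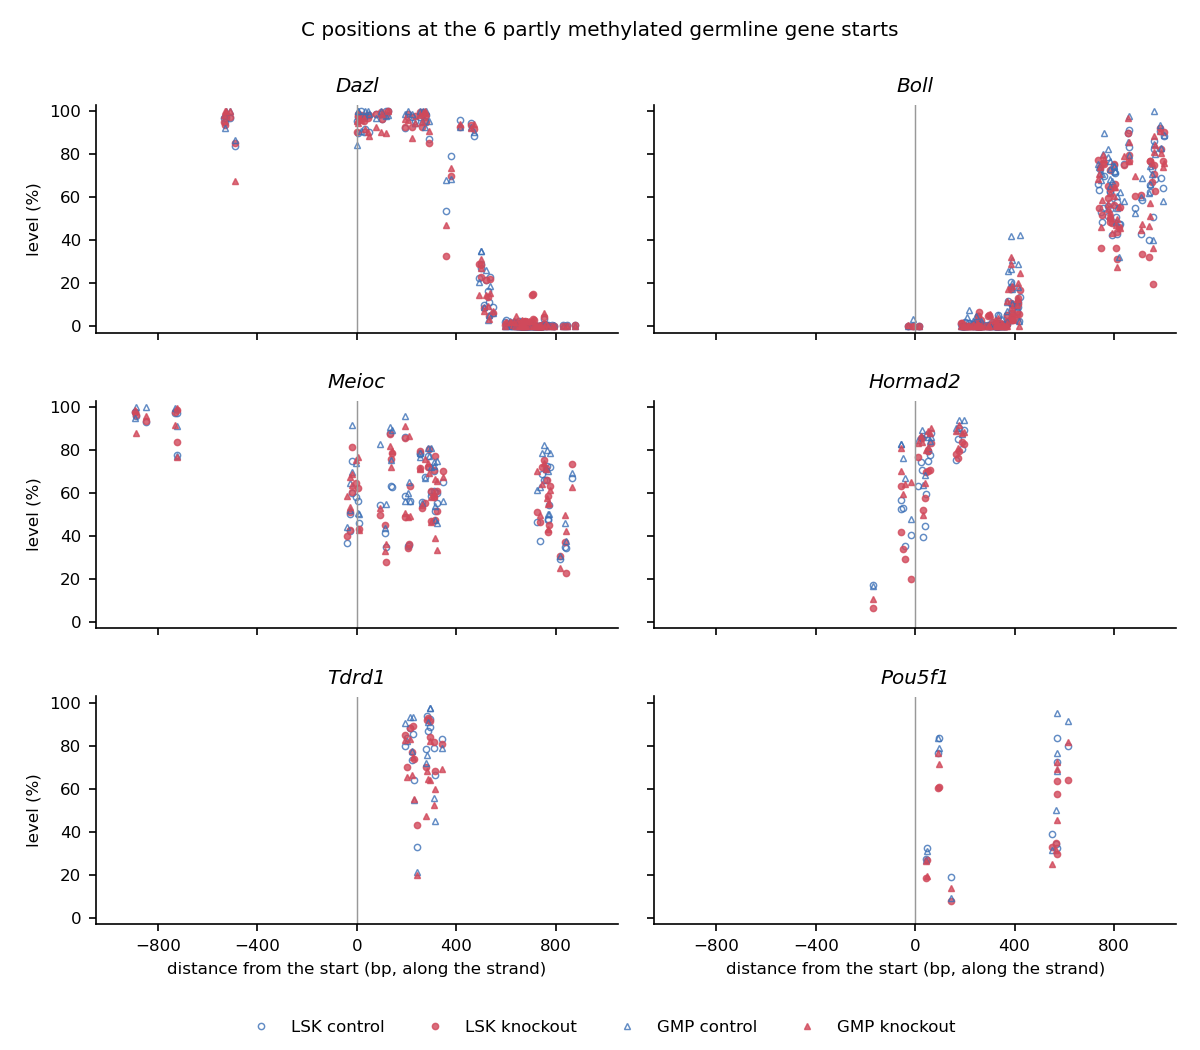
Level of single C positions in percent, as the mean of a group's libraries (y axis), against distance from the start in bp along the gene's strand (x axis; vertical line, the start), for the 6 partly methylated germline starts. Circles are LSK and triangles GMP, open for control and filled for knockout. Dazl drops from about 90% to near 0 between 400 and 600 bp after the start and Boll climbs from near 0 to about 60% beyond 600 bp, in each group.

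Knockout and control bodies in GMP were compared for 23 members, and 0 were called, against 0.678% of 15344 bodies. An unadjusted p under 0.05 was found for 2 members and for 13.3% of all bodies. Of the 23, 14 were lower, with a median of -1.45 points, against -0.76 over all bodies, 64.3% of which were lower. Groups did not overlap for 7 members, 6 of them lower, against 31.2% of all bodies lower without overlap and 11.5% higher. The Tex14 body read 73.7 and 76.2% in control and 67.6 and 68.5% in knockout, the largest difference, -6.87 points (adjusted p = 0.151). The Dmrt1 body read 62.3 and 55.3% in control and 54.3 and 53.1% in knockout, -5.13 points, but 0.03 points with equal weight. The Tdrd12 body read 82.4 and 78.2% in control and 80.7 and 90.1% in knockout, the highest difference, 5.11 points, and the groups overlapped. The Pou5f1 body read 13.2 and 22.2% in control and 12.8 and 15.7% in knockout GMP.

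Between the control cells, Dazl was the 1 member start called, of 27, against 0.354% of 18097 starts. Its level was 29.3% ± 2.99 (n = 3) in control LSK and 44.1% ± 2.44 (n = 2) in control GMP, 14.8 points higher (adjusted p = 0.0312). This value moved with coverage: with equal weight for each C position the levels were 40.0% ± 0.113 and 40.2% ± 0.955, and the difference was 0.23 points. The knockout difference of Dazl in GMP likewise shrank from -8.62 to -0.87 points with equal weight. Within 500 bp of the start the difference between control cells was 5.62 points (adjusted p = 0.251), and without control library 346, 349 or 1331 the adjusted p was 0.248, 0.164 or 0.156. Hormad2 was 11.6 points higher in control GMP (adjusted p = 0.0674) and 14.1 points with equal weight, and Meioc 8.83 points (adjusted p = 0.179); both were called, with Dazl, when library 1326 was left out. Library 1326 was the 1 control LSK library with many Y positions, and both control GMP libraries had many, so this difference between libraries moves with the cell type; its part in the differences between control cells, that of the Gdf9 body included, was not tested. The 14 highly methylated starts differed by at most 2.96 points (Sycp2) in either direction.

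Among bodies, Gdf9 was the 1 member called between control cells, of 24, against 3.87% of 15124 bodies. Its body read 88.4, 80.3 and 83.3% in control LSK libraries 1326, 1330 and 1331 and had a mean of 67.5% ± 0.833 (n = 2) in control GMP, a difference of -16.5 points (adjusted p = 0.0173, 10 C positions). With equal weight the difference was -8.97 points (adjusted p = 0.0811), and without library 346, 349 or 1331 the adjusted p was 0.103, 0.144 or 0.0528. The Gdf9 body in the knockout comparisons was at 78.8% ± 5.45 (n = 3) in knockout LSK against 84.0% ± 4.10, and at 63.8% ± 3.19 (n = 2) against 65.5% ± 0.161 in GMP. The Tex14 body was 9.11 points higher in control GMP (adjusted p = 0.0209) and differed by -0.28 points with equal weight.

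The remaining 12 members had too few C positions for a test of the start in LSK. Syce1, Tdrd12, Piwil1, Piwil2, Piwil4, Stk31, Rad21l and Nanos3 had 0 positions listed in all 6 libraries. Mov10l1, the piRNA helicase, had 4 positions 600 to 800 bp after the start, with 93.6, 93.2 and 86.7% in control and 88.7, 90.5 and 92.5% in knockout LSK. In GMP these 4 positions were lower in control, at 65.9 and 59.2%, than in knockout, at 82.2 and 76.6%, with 25.8 reads on average and no overlap. The gene end read for Dppa3 had 4 positions at 83.1% ± 5.96 (n = 3) in control and 67.7% ± 11.2 in knockout LSK. The end read for Spo11, which makes meiotic breaks, had 1 position, at 16.1% ± 6.63 and 30.2% ± 4.83, and Nanos2, a regulator of male germ cells, 1 position at 87.7% ± 8.01 and 91.9% ± 5.86. The bodies of Syce1 (91.5% ± 0.871 and 90.4% ± 0.837) and Rad21l (55.9% ± 9.17 and 55.3% ± 4.54) were measured in control and knockout LSK; Nanos3 had no measured position in either region.

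Of 54 other germline genes listed by name, 53 were in the gene table. Their starts were called in 0 of 32 measured genes in LSK and 0 of 31 in GMP, with medians of -0.36 and -0.38 points. Their bodies were called in 1 of 25 in LSK (Syce3, a synaptonemal complex protein, lower) and 0 of 24 in GMP. The background for this list and the next was 0.780% of starts and 2.04% of bodies in LSK, and 0% and 0.678% in GMP. Of 16 genes of the silencing machinery of germline promoters and of DNA methylation, among them E2f6, Mga, Max, Setdb1, Uhrf1 and Dnmt1, 13 starts and 12 bodies were measured, and 0 were called in either knockout comparison; their start differences ran from -0.25 to 0.28 points in LSK and from -0.38 to 0.78 in GMP.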

How the data were processed

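DNA was digested with MspI, size-selected to 150 to 400 bp, bisulfite-converted and read as 50-bp single ends, per the labels' protocols. Bismark, mm10 and GRCm38 appear in the submitters' processing notes; versions are not given in the sources used here. The deposited tables hold 1 row per C position. Their coverage is a count of reads, and 2 columns give C and T as a percent of that coverage, per the file headers. Positions under 10 reads are unlisted. Methylated reads were computed as coverage times the deposited percent, which gave whole reads everywhere, given percents rounded to 3 decimals. Reads carry no molecular identifiers, and no interval from read counts is given.

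Gene starts came from the RefSeq promoter table (GRCm38.p6; the outermost of several starts) for 33 members. For some of them, Mei1, Dmrtb1 and Stag3 included, that start lies several kb inside the gene as the RefSeq gene table places it. For Spo11, Tex15, Gdf9, Dppa3, Dmrt1 and Piwil2 the gene end with more listed C positions stood in. Region reads were summed over positions listed in every library of a fit, with at least 5 positions, and tested by a quasi-binomial logistic model with an F test. The squeezeVar function of limma 3.58.1, in R 4.3.3, moderated the dispersions along log coverage, with a floor of 1; p-values were adjusted over all genes by Benjamini-Hochberg. Code was checked on simulated data.

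Members and lists were chosen with earlier results of these data known. Values in each library are given for called members, the 3 largest differences per region and cell type, the 3 highest and 3 lowest starts, and Dazl, Ddx4, Sycp3, Dmc1, Brdt and Pou5f1. Alternatives were 20 reads per position, 3 positions, 500 or 2000 bp, a prior from regions at 5 to 95%, no moderation, limma on logit levels, equal weight per position, a term for listed Y positions, and each library left out.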

Additional observations from a re-analysis of the deposited data

How the results depend on the processing

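No paired analysis was possible because the library numbers are not shared between groups. The count of member starts called between knockout and control LSK was 0 in 14 of 15 alternatives and 1 within 2000 bp (Pou5f1), and 0 when each library was left out in turn. For member bodies in LSK it was 1 (Pou5f1) and became 0 within 500 bp, within 2000 bp, without moderation, with limma on logit levels and with equal weight per C position; leaving out 1 library gave 0 to 2 (2, with Stag3, without 1327). Member starts in GMP gave 0 to 1 when 1 library was left out (Boll, without control 349). Between control cells, the count for starts was 1 and became 2 with 3 C positions (with Mov10l1), and 0 within 500 bp, with the intermediate prior, without moderation, with logit levels and with equal weight; leaving out 1 library gave 0 to 3. For bodies it was 1 and became 2 within 500 bp (with Boll), and 0 without moderation, with logit levels and with equal weight; leaving out 1 library gave 0 to 2. No member was called under any alternative in GMP bodies or for the difference between cell types. The cause of these moves was not tested. Among the 14 differences of single genes recomputed under each alternative, reversed directions were those of Hormad2 starts in LSK (-1.10 points, equal weight), Dmc1 starts in LSK (6.24 points without 1327, over 10 C positions in place of 5; leaving out 1 library gave -12.2 to 6.24) and Dmrt1 bodies in GMP (2.75 points within 2000 bp and 0.0327 with equal weight). Over all measured members, equal weight reversed 5 of 27 starts and 4 of 24 bodies in LSK and 4 of 27 starts and 5 of 23 bodies in GMP, and leaving out 1 library reversed up to 7 starts and 7 bodies in LSK and up to 5 and 5 in GMP. Over all genes, calls ranged over the alternatives from 0 to 190 for LSK starts (142 in the test reported), 0 to 564 for LSK bodies (312), 0 to 41 for GMP starts (0), 0 to 343 for GMP bodies (104), 0 to 536 for starts between control cells (64) and 0 to 779 for bodies (586). Without moderation 0 genes were called in each of these, so the counts depend on the moderated spread.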

Other observations

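Over the positions it lists, unassigned GMP library 352 had the highly methylated starts at levels like those of the other GMP libraries: Ddx4 at 90.1%, Mael at 90.6%, Sycp2 at 91.8%, Sycp3 at 89.0% and Brdt at 99.4%. Its partly methylated starts were at 44.5% for Pou5f1, 57.5% for Hormad2, 65.4% for Meioc, 68.6% for Tdrd1, 42.0% for Dazl and 26.3% for Boll. Pou5f1 and Hormad2 lay below all 4 assigned GMP libraries, and Boll, Meioc, Tdrd1 and Dazl lay within their range. Library 352 does not list each position of the others, such as the 1 Tdrd1 position in the first 200 bp after the start. Its gene bodies were at 14.01% for Pou5f1, 74.1% for Stag3, 65.3% for Tex14, 46.7% for Dppa3 and 58.2% for Gdf9. Of these, Stag3, Tex14, Dppa3 and Gdf9 lay below the 4 assigned GMP libraries. No test was made on a single unassigned library.

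Among GMP libraries, the starts of Dazl, Brdt and Tdrd12 lie in 5-Mb windows where C positions with 20 or more reads in each library of 1 genotype were unlisted in the other. There were 44 such positions in the window of Dazl, 43 in that of Tdrd12 and 179 in that of Brdt. The genome held 28 such windows in GMP and 3 in LSK, and none of the LSK windows held a member. Their part in the GMP values of Dazl and Brdt was not tested.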
